A study of Mus musculus with 4 samples.

Results

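The genes described here are 39 mouse genes of lipid metabolism: 16 sterol synthesis enzymes, 5 regulators and transporters of sterols, 8 fatty acid enzymes, 9 genes of the liver X receptor (LXR) and peroxisome proliferator-activated receptor (PPAR) systems, and the oxysterol enzyme Ch25h. They were chosen by name: a probe belonged to the set where it was not a control and its transcript identifier mapped to 1 of the 39 symbols. In all, 38 of the 39 had a probe, among 23451 genes with a value, and 59 probes measured them; Acat2, the thiolase that makes acetoacetyl-CoA, matched no probe. Total RNA of mouse bone marrow-derived dendritic cells (BMDCs) was hybridised to 4 Agilent arrays of 1 colour. Each of 4 conditions had 1 array: LPS with LA, LPS, LA, and medium. All cells came from wild-type male C57BL/6J femur marrow grown to day 6 in MEM that held 10% FBS and, at 10 ng/ml, GM-CSF, the growth factor that drives marrow cells into a mixed dendritic and myeloid culture, and the labels name no sorting step. LPS, the component of the outer membrane of Gram-negative bacteria that stimulates TLR4, was given at 100 ng/ml and L-(+)-LA at 20 mM (the title of the study speaks of lactate), each alone or both together, for 4 h, while medium received neither. The labels give no time for medium, no pH for LA and no number of mice behind an array.

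Cells make cholesterol from acetyl-CoA through mevalonate, isoprenoid and sterol steps. The transcription factor SREBP2 (gene Srebf2) switches these enzymes on when sterols are low: SCAP carries it out of the endoplasmic reticulum and INSIG proteins hold it back. SREBP1 (Srebf1) does the same for fatty acid enzymes and is itself a target of LXR, which oxysterols activate and which drives cholesterol export. In dendritic cells and macrophages these pathways supply membrane and lipid mediators, and Ch25h is known as a gene that responds to interferon and to TLR ligands.

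Values are levels: the processed signal of a spot was divided by the 75th percentile of its array and put on a log2 scale, so that a level of 0 equals that percentile. The level of a gene is that of its brightest probe, and levels of different genes are not comparable. A gene counted as measured in a comparison where the scanner marked this probe well above background on each array of the pair, and it was called higher or lower where the levels differed by at least 1 log2 unit (2-fold). The 75th percentile lay between 146 and 179 signal units, 56.5% (LPS) to 64.1% (LA) of the spots were above background, and no spot was saturated. With 1 array per condition there is no spread between replicates and no test, and every difference below is between single arrays. The spots of 300 probes printed 10 times had a median SD of 0.051 to 0.054 log2 units within an array, and the difference of a gene had a median SD between its probes of 0.23 for LPS against medium, 0.24 for LA against medium, 0.31 for LPS with LA against LPS and 0.20 for LPS with LA against LA. Both cover measurement error within these arrays only. The treatment showed in Tnf, an LPS-induced cytokine gene, with levels of 1.46 with LPS and LA, 6.69 with LPS, 0.86 with LA and 2.15 in medium.

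The lipid genes did not move as one block. With LPS alone, the sterol enzyme Idi1 and the oxysterol enzyme Ch25h were over 2-fold higher than in medium, the enzymes Hmgcs1 and Fdft1 came close to 2-fold, and the desaturases Scd2 and Fads1 were lower. With LA alone, Fasn and the exporter Abcg1 were higher, and the lipid uptake genes Lpl and Cd36 and the exporter Abca1 were lower. With both agents, all of these genes had levels within 2-fold of those with LA alone. In RNA of whole cultures, fewer cells of a type and less RNA per cell cannot be told apart.

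Against medium, LPS left 33 of 36 measured members within 2-fold. Higher was 1 member (Idi1), where 8.14% of the 13592 genes measured were higher, and lower were 2 (Scd2 and Fads1), where 7.5% were lower, so both shares were under those of all genes. Ch25h came in addition as a bound. With median scaling the split was 3 higher and 2 lower, against 1205 and 887 of all 13592 genes. Under the scaling of the authors' deposited table it was 1 higher and 4 lower, against 740 and 1716 of 13387 genes. LA against medium also had 36 members measured. It had 2 higher (Fasn and Abcg1), against 3.12% of 14555 genes, and 3 lower (Abca1, Cd36 and Lpl), against 3.33%, with bounds higher for Ch25h and Elovl6. The split was 1 higher and 3 lower with median scaling (381 and 576 of all 14555 genes) and 3 and 2 under the authors' scaling (569 and 298 of 13388 genes).

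LPS with LA against LPS had the most calls, 5 higher (Srebf1, Scap, Fasn, Scd2 and Abcg1) and 8 lower (Hmgcs1, Idi1, Fdft1, Cyp51, Elovl5, Cd36, Lpl and Ch25h) among 37 measured members. All genes were called often here too, 11.5% of 13631 higher and 12.5% lower, so the share of members higher was near the background and the share lower was above it. The split depended on the scaling, for the members as for all genes. Under the 75th percentile of probes above background on all arrays it was 7 higher and 4 lower, against 2475 and 1168 of all 13631 genes. Under the scaling of the authors' deposited table it was 11 higher and 3 lower, against 3043 and 923 of 13387 genes. LPS with LA against LA had 0 higher and 1 lower (Stard4) among 37 measured members, against 0.906% and 1.5% of 14905 genes, and Elovl6 came in addition as a bound lower. Each comparison shares an array with 2 of the others, so none is independent of the rest.

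Medians by role differed in LPS with LA against LPS, where that of all genes was 0.0034. The 7 measured fatty acid enzymes had a median of 0.69, and it was above 0 under all 7 other ways of processing. The 15 measured sterol enzymes had a median of -0.60, below 0 under all 7, with 8 members below 0 and 7 above. This median is the value of Sqle, and the next value up was 0.060 (Mvd), so 1 gene sets its sign. The second list of genes described below holds further sterol synthesis enzymes, which this median leaves out. The 9 LXR and PPAR genes had a median of -0.32, which was 0.10 under the scaling of the authors' table. That scaling moved the median of all genes to 0.43, and relative to it the 3 medians were 0.68, -0.61 and -0.33. For LPS against medium the medians were 0.039 for the sterol enzymes (-0.20 under the authors' scaling and also below 0 under quantile normalization and the 75th percentile of detected probes), -0.50 for the fatty acid enzymes and -0.43 for the LXR and PPAR genes. For LA against medium they were -0.32 for the sterol enzymes, -0.36 for the fatty acid enzymes (0.0465 with the mean of all probes) and -0.085 for the LXR and PPAR genes (0.067 under the authors' scaling).

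**Figure D1:**
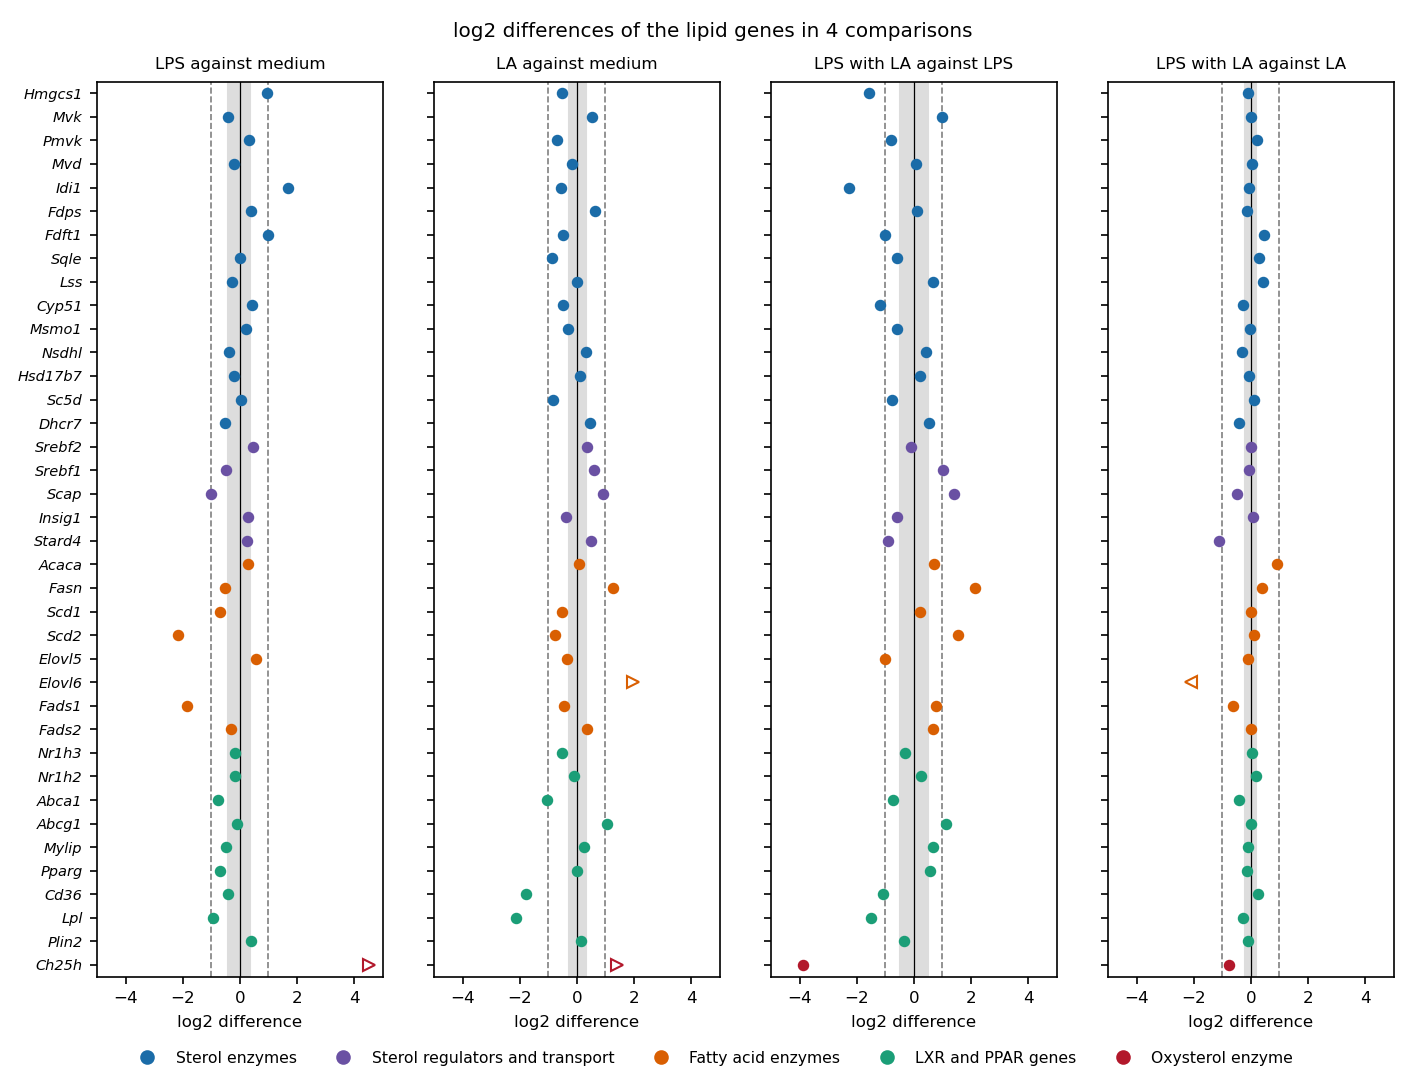
Log2 difference (x axis) of each of the 38 members with a probe (rows, coloured by role) in the 4 comparisons. Filled points are measured differences, open triangles are bounds, dashed lines mark 2-fold and the grey band spans the middle quartiles of all genes measured. In LPS with LA against LA the measured points lie within 2-fold apart from Stard4 at -1.13, while LPS with LA against LPS runs from Ch25h at -3.89 to Fasn at 2.14.

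Among the sterol enzymes, the widest differences were those of Idi1 and Hmgcs1. Idi1, the isomerase that makes dimethylallyl diphosphate, had levels of 4.32 with LPS and LA, 6.61 with LPS, 4.39 with LA and 4.93 in medium. Its LPS level stood alone above the other 3, 3.22-fold higher than in medium, and LPS with LA was 4.88-fold lower than LPS. Hmgcs1, the synthase that makes HMG-CoA, had levels of 2.30 with LPS and LA, 3.86 with LPS, 2.39 with LA and 2.91 in medium. It had the same order, with a difference of 0.95 for LPS against medium, just under the 2-fold line, and a level 2.96-fold lower in LPS with LA than in LPS. Both genes were past 2-fold in LPS with LA against LPS under all 7 other ways of processing, Idi1 between -2.40 and -1.77 and Hmgcs1 between -1.67 and -1.10, and each has 1 probe. For a measured gene with 1 probe, here and below, the mean of all probes and no filter on dim probes cannot change the value.

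Fdft1, squalene synthase, the first enzyme committed to sterols, had levels of 2.54 with LPS and LA, 3.54 with LPS, 2.09 with LA and 2.56 in medium. It was again highest with LPS, by 0.97 over medium, and sat at the 2-fold line in LPS with LA against LPS (-1.40 at its second probe, and -0.58 under the authors' scaling). Cyp51, the lanosterol demethylase, had levels of 1.08 with LPS and LA, 2.25 with LPS, 1.35 with LA and 1.82 in medium. It was 2.26-fold lower in LPS with LA than in LPS (-0.95 at the second probe, -0.75 under the authors' scaling), while LPS lay 0.43 above medium. For these 4 enzymes the level with LA alone was below medium, within 2-fold, with differences of -0.54 to -0.47 at the brightest probes. The second probes gave -0.03 for Fdft1 and -0.40 for Cyp51.

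Promoters of Idi1 and Hmgcs1 are printed because these 2 genes had the widest differences among the sterol enzymes. SREBP2 is known to bind sterol regulatory elements beside CCAAT boxes, which NF-Y binds. Each sequence is the 250 bases before the annotated start, from RefSeq (GRCm38.p6), 5′ to 3′ on the strand of the gene, with capitals on matches to TCACNCCAC (a core of the sterol element) and CCAAT on either strand, where ATTGG is CCAAT on the other strand. Idi1 lies at chr13:8885356-8885605 (+) and Hmgcs1 at chr13:119690101-119690350 (+).
Idi1: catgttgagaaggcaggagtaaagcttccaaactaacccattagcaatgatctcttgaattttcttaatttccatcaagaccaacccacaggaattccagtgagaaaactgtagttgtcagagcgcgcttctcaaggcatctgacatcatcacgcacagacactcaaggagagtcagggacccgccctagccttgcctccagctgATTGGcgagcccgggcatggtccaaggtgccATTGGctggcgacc
Hmgcs1: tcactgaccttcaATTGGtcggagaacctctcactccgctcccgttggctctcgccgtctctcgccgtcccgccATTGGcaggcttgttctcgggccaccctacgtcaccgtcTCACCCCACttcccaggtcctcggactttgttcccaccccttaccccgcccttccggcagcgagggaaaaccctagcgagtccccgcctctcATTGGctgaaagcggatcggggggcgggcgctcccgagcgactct
Hmgcs1 holds TCACCCCAC at -137 and ATTGG at -237, -176 and -45, counted from the start, where -1 is the base before it. Idi1 holds ATTGG at -45 and -14 and no match to TCACNCCAC. Of the 30 members with a promoter in the table, 1 held TCACNCCAC, against 1.22% of 27025 genes with a promoter and 1.05% of all 32851 promoters of the same length. CCAAT was present in 21 of the 30, against 37.5% of genes with a promoter and 33.8% of all promoters, and in 12 of the 13 sterol enzymes with a promoter (Cyp51, Dhcr7, Hmgcs1, Hsd17b7, Idi1, Lss, Msmo1, Mvd, Mvk, Nsdhl, Pmvk and Sc5d). A match describes letters in this window and is not a site, and genes with a match in this list lay on both sides of 0 in every comparison.

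At their brightest probes, with the main processing, the remaining enzymes of the mevalonate arm stayed within 2-fold in all 4 comparisons. Mvk, mevalonate kinase, had levels of 0.40 with LPS and LA, -0.57 with LPS, 0.39 with LA and -0.14 in medium. It ran opposite to Idi1, lowest with LPS, with a difference of 0.97 for LPS with LA against LPS, just under the 2-fold line. LA against medium lay at 0.53, but past 2-fold at 1.09 with the mean of all probes. The second probe of Mvk in that mean was not well above background in medium. Pmvk, the next kinase, had levels of 3.78 with LPS and LA, 4.60 with LPS, 3.59 with LA and 4.28 in medium. Its level was lower on both arrays with LA than on both without, by -0.81 with LPS and by -0.69 in its absence, and its second probe gave -0.54 and -0.60. Mvd, the decarboxylase, had levels of 1.45, 1.39, 1.42 and 1.60 for LPS with LA, LPS, LA and medium, and each of its 4 differences was under the median SD between probes. Fdps, farnesyl diphosphate synthase, had levels of 0.20 with LPS and LA, 0.11 with LPS, 0.33 with LA and -0.29 in medium, so that medium was lowest, with LPS at 0.40 and LA at 0.62 over it.

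At their brightest probes, the later steps, downstream of squalene, were also within 2-fold apart from Cyp51. Sqle, the epoxidase, a known control point of the pathway, had levels of 2.20 with LPS and LA, 2.80 with LPS, 1.93 with LA and 2.79 in medium. Sc5d, the sterol desaturase, had levels of 0.32 with LPS and LA, 1.08 with LPS, 0.22 with LA and 1.04 in medium. In both genes the arrays with LA were lower than those without, by -0.60 and -0.86 for Sqle and by -0.76 and -0.83 for Sc5d, with LPS and in its absence, and LPS differed from medium by at most 0.04. Msmo1, the methylsterol oxidase, had levels of 1.89 with LPS and LA, 2.49 with LPS, 1.93 with LA and 2.26 in medium, and both its probes were lower in LPS with LA than in LPS (-0.60 and -0.89).

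Lss, which cyclises squalene epoxide to lanosterol, had levels of -1.66 with LPS and LA, -2.34 with LPS, -2.08 with LA and -2.08 in medium. Its probes disagreed: a second, dimmer one gave 1.42 for LA against medium and -1.26 for LPS with LA against LA, where the brightest gave 0.42 in the last. Dhcr7, which makes cholesterol from its last precursor, had levels of 0.16 with LPS and LA, -0.38 with LPS, 0.59 with LA and 0.14 in medium. Nsdhl, which acts in C4 demethylation, had levels of -1.78 with LPS and LA, -2.21 with LPS, -1.48 with LA and -1.82 in medium. These 3 were lowest with LPS, by -0.26, -0.52 and -0.39 against medium, and thus differed in direction from Idi1. Hsd17b7, which reduces the 3-keto sterol, had levels of -0.54, -0.77, -0.48 and -0.58 for LPS with LA, LPS, LA and medium, and its 2 probes differed in sign in LPS against medium and in LPS with LA against LPS.

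**Figure D2:**
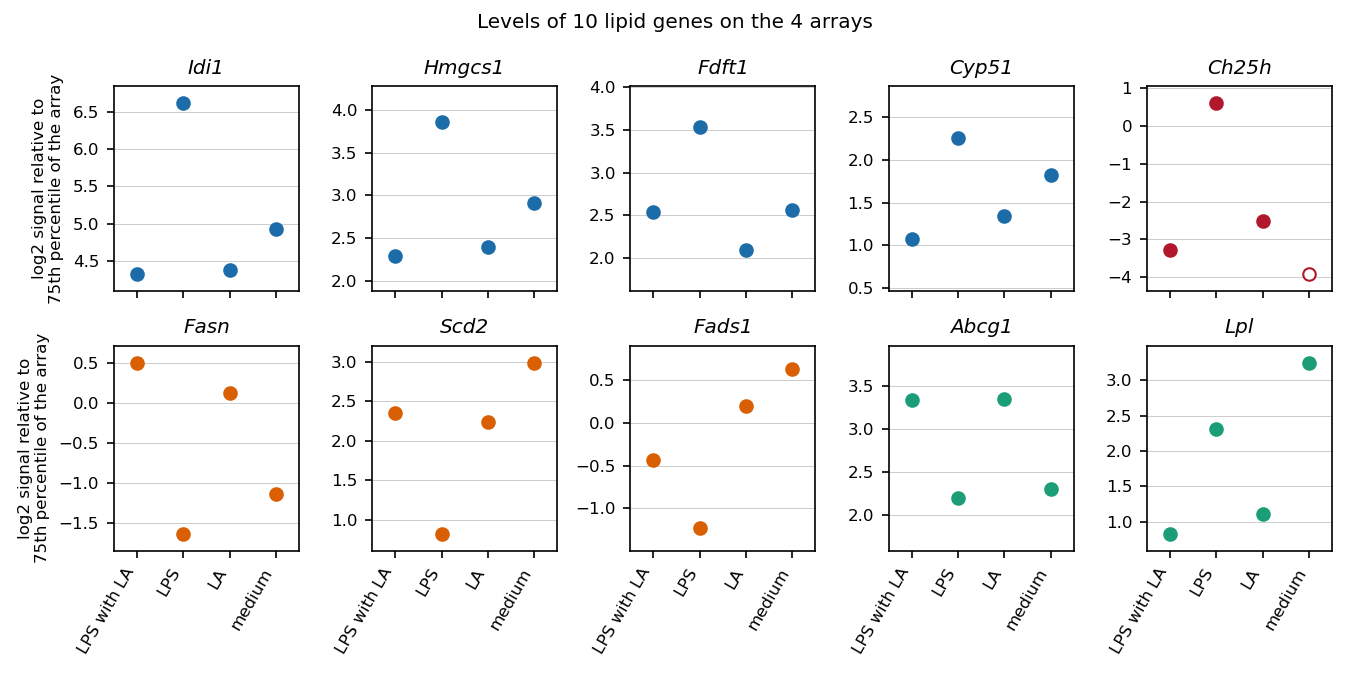
Level (y axis, log2 signal over the array's 75th percentile) of 10 members on the 4 arrays (x axis), 1 point per array, with an open point where the probe was not well above background. Each panel has its own y range, so heights are not comparable between panels. Idi1, Hmgcs1, Fdft1, Cyp51 and Ch25h were highest with LPS, Fasn, Scd2 and Fads1 lowest with LPS, Abcg1 was high on both arrays with LA, and Lpl was low on both.

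Of the 5 regulators and transporters of sterols, 0 were called in either comparison with medium. All genes had 8.14% higher and 7.5% lower there with LPS, and 3.12% and 3.33% with LA. In LPS with LA against LPS 2 were higher, against 11.5% of all genes, and in LPS with LA against LA 1 was lower, against 1.5%. A list of 5 genes is too short to set against these shares. Srebf2, which encodes SREBP2, had levels of 1.48 with LPS and LA, 1.59 with LPS, 1.50 with LA and 1.13 in medium. Medium was lowest, and the differences of LPS and LA from it were 0.46 and 0.37. Srebf1, which encodes SREBP1, had levels of -0.06 with LPS and LA, -1.07 with LPS, 0.02 with LA and -0.60 in medium. It was low with LPS and 2.01-fold higher in LPS with LA than in LPS, though under 2-fold with normexp, median scaling and quantile normalization (lowest 0.67). Scap, the escort protein, had levels of -1.13 with LPS and LA, -2.52 with LPS, -0.62 with LA and -1.52 in medium. This is the order of Srebf1 but wider, 1.40 log2 units higher in LPS with LA than in LPS (0.69 with normexp), 0.91 higher in LA than in medium, and in LPS against medium just short of 2-fold lower.

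Insig1, which retains SCAP in the endoplasmic reticulum and is itself a sterol-responsive target of SREBP, had levels of -1.28 with LPS and LA, -0.71 with LPS, -1.37 with LA and -1.0 in medium. Like Idi1 and Hmgcs1 it was highest with LPS, then in medium, and lower on both arrays with LA, with LPS at 0.30 over medium and LPS with LA at -0.58 against LPS. Stard4, a cytosolic carrier of cholesterol, had levels of -1.64 with LPS and LA, -0.74 with LPS, -0.50 with LA and -1.01 in medium. It was the only measured member called in LPS with LA against LA, 2.19-fold lower, but its second, dimmer probe gave 0.55 there, and the mean of all its probes was within 2-fold.

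Of the 7 measured fatty acid enzymes, 5 were below 0 in LPS against medium and 6 above 0 in LPS with LA against LPS. Fasn, fatty acid synthase, had levels of 0.51 with LPS and LA, -1.64 with LPS, 0.13 with LA and -1.13 in medium. The arrays with LA were both above those without, 4.42-fold in the presence of LPS and 2.40-fold in its absence. The first of these differences was past 2-fold under all 7 other ways of processing (1.28 to 2.56), and the second in 6 of 7, with 0.85 under normexp. Acaca, the acetyl-CoA carboxylase that feeds Fasn, had levels of -0.42 with LPS and LA, -1.12 with LPS, -1.34 with LA and -1.41 in medium. All 3 of its probes measured in LPS with LA against LPS were higher (0.69, 0.96 and 0.37), and they differed in sign in each of the other 3 comparisons.

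The Fasn promoter is printed since Fasn had the highest difference of all members in LPS with LA against LPS; it lies at chr11:120824548-120824797 (-), with the same source, length and capitals as above.
Fasn: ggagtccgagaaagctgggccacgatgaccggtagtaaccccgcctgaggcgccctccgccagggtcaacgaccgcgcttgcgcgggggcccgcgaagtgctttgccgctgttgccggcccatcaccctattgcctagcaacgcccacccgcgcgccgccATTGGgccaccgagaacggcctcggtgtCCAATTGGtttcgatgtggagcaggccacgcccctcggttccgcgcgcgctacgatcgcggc
It holds ATTGG at -90, CCAAT at -62 and ATTGG at -59, the last 2 overlapping in CCAATTGG, and no TCACNCCAC. Of the 5 fatty acid enzymes with a promoter, CCAAT was present in 2 (Elovl5 and Fasn), near the 37.5% of all genes with a promoter.

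Desaturases were lowest with LPS. Scd2, a stearoyl-CoA desaturase, had levels of 2.36 with LPS and LA, 0.82 with LPS, 2.24 with LA and 2.99 in medium. It was 4.51-fold lower in LPS than in medium and 2.90-fold higher in LPS with LA than in LPS, while LA against medium lay at -0.76. Scd1, its paralog, had levels of -1.46 with LPS and LA, -1.67 with LPS, -1.47 with LA and -0.96 in medium, with the same lowest and highest arrays but no call. Fads1, the delta-5 desaturase of polyunsaturated fatty acids, had levels of -0.44 with LPS and LA, -1.23 with LPS, 0.20 with LA and 0.63 in medium. It was 3.62-fold lower in LPS than in medium, with -0.92 at its second probe. Scd2 and Fads1 were called in LPS against medium under all 7 other ways of processing, between -2.41 and -2.04 and between -2.09 and -1.25. Fads2, the delta-6 desaturase, had levels of 2.48 with LPS and LA, 1.82 with LPS, 2.49 with LA and 2.12 in medium, again lowest with LPS, by -0.29 against medium (0.16 at its second probe).

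The elongases gave less certain values. Elovl5, which elongates polyunsaturated fatty acids, had levels of 1.69 with LPS and LA, 2.70 with LPS, 1.78 with LA and 2.14 in medium. This probe put LPS with LA 2.02-fold below LPS, but the second probe gave 0.23, and only 2 of 7 other ways of processing kept it past 2-fold. Elovl6, which elongates palmitate, was well above background only on the LA array, at -2.0, and its levels of -6.11 with LPS and LA, -5.56 with LPS and -4.99 in medium were not. It was at least 3.95-fold higher in LA than in medium and at least 4.28-fold lower in LPS with LA than in LA. For these bounds the dim array was given its lowest detected level, or the gene's own level where that was higher, and 1 probe on 1 array stands behind each.

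Of the LXR and PPAR genes, those for lipid uptake were low on both arrays with LA. Lpl, lipoprotein lipase, had levels of 0.83 with LPS and LA, 2.32 with LPS, 1.11 with LA and 3.25 in medium. Medium was highest, LA was 4.42-fold lower than medium, and LPS with LA was 2.80-fold lower than LPS. Its 3 probes gave -2.22 to -2.06 for LA against medium and -1.61 to -1.42 for LPS with LA against LPS, and LPS against medium was also lower (-1.29 to -0.91). Cd36, a scavenger receptor that takes up fatty acids and oxidised lipoprotein, had levels of -1.63 with LPS and LA, -0.53 with LPS, -1.88 with LA and -0.10 in medium. LA was 3.44-fold lower than medium and LPS with LA 2.14-fold lower than LPS, where 3 of 7 other ways of processing put the difference under 2-fold (smallest -0.53, normexp).

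The cholesterol exporters, both known LXR targets, went apart in LA against medium. Abcg1, which passes cholesterol to HDL, had levels of 3.34 with LPS and LA, 2.20 with LPS, 3.35 with LA and 2.30 in medium. The arrays with LA stood above those without, 2.20-fold with LPS and 2.08-fold in its absence, and LPS alone differed from medium by -0.10. Abca1, which passes cholesterol to lipid-poor apolipoprotein, had levels of 0.76 with LPS and LA, 1.48 with LPS, 1.17 with LA and 2.23 in medium. It was 2.08-fold lower in LA than in medium, within 2-fold under 4 of 7 other ways of processing (smallest -0.90), and -0.86 at its second probe. With LPS alone Abca1 was also below medium, by -0.75 and by -1.13 at the second probe. In LPS with LA against LPS its probes gave -0.72 and -0.03. Mylip, an LXR target that marks lipoprotein receptors for degradation, had levels of 0.37 with LPS and LA, -0.29 with LPS, 0.45 with LA and 0.19 in medium, lowest with LPS and within 2-fold.

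At their brightest probes, the receptors themselves were within 2-fold in every comparison. Nr1h2, which encodes LXR beta, had levels of 1.71 with LPS and LA, 1.47 with LPS, 1.55 with LA and 1.63 in medium, a narrow range. Nr1h3, which encodes LXR alpha, had levels of -1.51 with LPS and LA, -1.19 with LPS, -1.56 with LA and -1.03 in medium. Both arrays with LA were the low ones, by -0.32 and -0.53 at this probe and by -1.43 and -1.01 at the second, with LPS and in its absence. The second probe was thus past 2-fold in both comparisons. Pparg, the PPAR of adipocytes and alternatively activated myeloid cells, had levels of -0.10 with LPS and LA, -0.67 with LPS, 0.03 with LA and 0.04 in medium, so that LPS was low and the rest close together. Plin2, which coats lipid droplets, had levels of 1.38 with LPS and LA, 1.72 with LPS, 1.47 with LA and 1.33 in medium, highest with LPS by 0.39 over medium.

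Ch25h, which makes 25-hydroxycholesterol, an LXR ligand that also restrains SREBP processing, had the widest differences of all members. Its levels were -3.29 with LPS and LA, 0.60 with LPS, -2.52 with LA and -3.92 in medium, where it was not well above background. Against that reading in medium, LPS was 22.9-fold higher and LA 2.63-fold higher, and these served as the bounds. Since the reading was not well above background, both folds are uncertain. LPS with LA was 14.8-fold lower than LPS. That last difference was past 2-fold in the 6 other ways of processing that gave a value (-4.00 to -1.97). Its promoter at chr19:34475149-34475398 (-) is printed since Ch25h was high on the same array as Idi1 and Hmgcs1. Neither motif was found in this window. Such absence is common, as 37.5% of genes with a promoter held CCAAT and 1.22% held TCACNCCAC. Any link between the motifs and the levels was not tested.
Ch25h: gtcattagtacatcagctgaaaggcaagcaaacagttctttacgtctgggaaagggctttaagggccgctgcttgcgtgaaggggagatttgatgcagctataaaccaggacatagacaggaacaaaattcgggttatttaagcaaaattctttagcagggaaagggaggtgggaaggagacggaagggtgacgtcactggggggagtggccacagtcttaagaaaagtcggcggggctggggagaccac

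When both agents were given, 33 of the 36 members above background on all 4 arrays had a level nearer to that with LA than to that with LPS. Among all 13368 such genes the share was 76.8%, so most genes of these arrays did the same. The 3 exceptions were Fdps, Stard4 and Acaca. For example, in Idi1, Hmgcs1, Mvk, Scd1, Scd2, Fads2, Abcg1 and Srebf1, LPS with LA differed from LA by at most 0.12 log2 units, less than the median SD of 0.20 between probes. Acaca, at 0.92, was the highest of all members in LPS with LA against LA, and its probes disagreed there. At the brightest probes, the difference made by LA with LPS had the opposite sign to that without LPS in Stard4, Scd2 and Fads1. Both differences were beyond the median SD between probes. For Scd2 the difference was 1.53 with LPS and -0.76 without. The second probes of Stard4 and Fads1 gave only 0.05 and -0.04 without LPS.

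A second list of 46 genes of the same pathways, all with a value, gives the surroundings of the members. In LPS against medium 2 of 44 measured were higher, 10 lower and 32 neither, with a median of -0.40, where 8.14% of all genes were higher and 7.5% lower. Acsl1, which activates long-chain fatty acids, was at 2.78 and Dgat2, a triglyceride synthase, at 1.72, while Rxra, the partner receptor of LXR and PPAR, was at -1.71 and the fatty acid oxidation enzyme Acadm at -1.63. In LA against medium 1 of 45 was higher (Acsl3, an acyl-CoA synthetase, at 1.13) and 1 lower (the oxidation enzyme Acadl, at -1.19), where all genes had 3.12% and 3.33%. In LPS with LA against LPS 13 of 44 were higher, 3 lower and 28 neither, with a median of 0.35, where 11.5% of all genes were higher and 12.5% lower. Rxra was at 2.33 and Aacs, which activates acetoacetate for lipid synthesis, at 2.06, while Acsl1 was at -2.64, Acadl at -1.95 and Insig2, the relative of Insig1, at -1.08. None of 45 was past 2-fold in LPS with LA against LA (0.906% of all genes higher, 1.5% lower), and with both agents 40 of 44 were nearer to LA than to LPS (76.8% of all genes).

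Probes of the same gene gave the nearest thing to a repeat. Of the members with several measured probes, all probes had the same sign in 10 of 14 for LPS against medium, 13 of 16 for LA against medium, 12 of 14 for LPS with LA against LPS and 11 of 17 for LPS with LA against LA. The last comparison had the smallest differences. Idi1, Hmgcs1, Fasn, Scd2, Abcg1, Cd36 and Ch25h have 1 probe each and no such check.

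**Figure D3:**
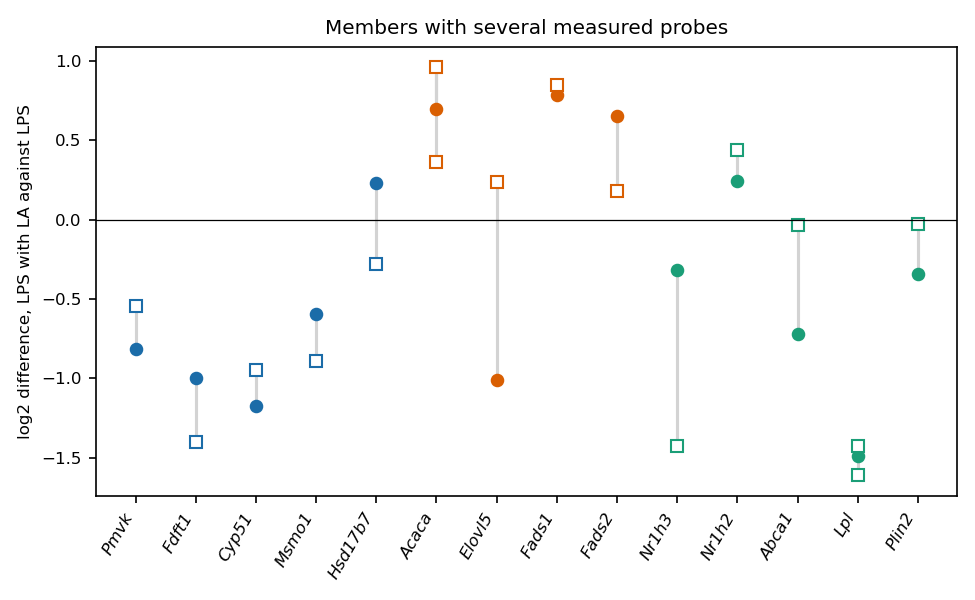
Log2 difference in LPS with LA against LPS (y axis) for the 14 members with several measured probes (x axis), with a filled circle for the brightest probe and open squares for the others. The 3 probes of Lpl lie together near -1.5, while those of Elovl5 and Hsd17b7 lie on both sides of 0.

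Markers of other cells moved with the same comparisons. In LPS with LA against LPS, 6 of 10 neutrophil and precursor markers were higher and 0 lower, against 11.5% and 12.5% of all genes. The summed linear signal of that list, relative to the 75th percentile, was 768 with LPS and LA, 680 with LPS, 749 with LA and 591 in medium. Of 9 measured macrophage markers 3 were lower, with sums of 56.4, 125, 63.1 and 87.8 in the same order of arrays, and of 9 measured dendritic cell markers 4 were lower and 1 higher (205, 322, 216 and 280). In LA against medium, 3 of 7 measured markers of mast cells, basophils and eosinophils were higher, against 3.12% of all genes (sums of 106, 81.7, 100 and 52.5). Their part in the lipid gene values was not tested. Dendritic markers were present, with 9 of 10 above background on all 4 arrays. The adipocyte markers Adipoq, Cidec and Cfd were not well above background on any array, and the sums of that list were 3.16, 3.61, 3.05 and 2.87; Cdh5 of the stromal and endothelial list was likewise below background, with list sums of 2.70, 2.17, 2.0 and 1.80.

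**Figure D4:**
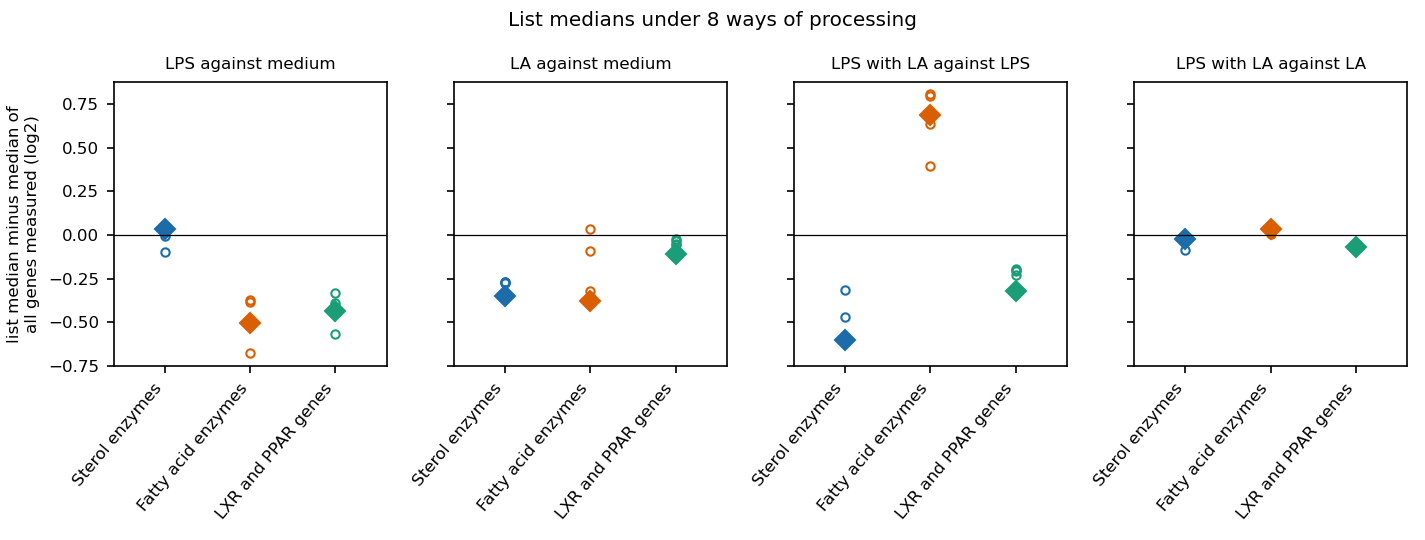
Median log2 difference of 3 gene lists minus that of all genes measured (y axis) in the 4 comparisons, as reported (diamonds) and under 7 other ways of processing (open circles). In LPS with LA against LPS the median of the fatty acid enzymes stayed above 0 and that of the sterol enzymes below 0 under every one of them. The sterol enzymes themselves were split as reported, 8 below 0 and 7 above, so 1 gene sets the sign of their median. Median scaling, scaling to detected probes and the authors' table apply a constant factor per array. Such a factor cancels in this difference, so agreement there is no check. Normexp, quantile normalization, no filter on dim probes and the mean of all probes could change it. They gave 0.39 to 0.81 for the fatty acid enzymes and -0.61 to -0.31 for the sterol enzymes.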

How the data were processed

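RNA was labelled with Cy3 and hybridised on 1 Agilent slide holding all 4 arrays, read in 1 scan. Per spot, the deposited intensity was the linear, background-subtracted signal that the scanner software gives as processed, from Feature Extraction 12.0.3.1 per the file headers (11.5.1.1 per the submitters' processing notes). The authors' deposited table of 31529 spots equals that intensity times 1 factor per array (9.30 for LPS with LA, 5.82 for LPS, 8.38 for LA and 6.67 for medium). Its values are linear and not centred, and its column medians were 1189, 873, 1164 and 1038; it served as an alternative. No column went unused for want of a sample (0).

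Of 62976 spots per array, controls (leaving 59305) and the 129 to 154 spots per array with outlier flags were left out, spots of a probe were averaged, and log2 values were taken relative to the 75th percentile of each array. Transcript identifiers gave 33767 of 56605 probes 1 symbol and 22838 none. The brightest probe by mean level stood for a gene. Only 1 array per group limits the precision, and there was no test between conditions. Alternatives were normexp (limma 3.58.1, offset 50, on median signals since the files hold no means), 3 other scalings, no filter on dim probes, the mean of all probes and the authors' table.

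All 39 members are named; of the wider list, at most the 3 highest and 3 lowest genes past 2-fold whose other probes agree in sign, except that 1 of them is not reported here. The members and lists were chosen with earlier results of these data known. Computations used Python 3.11.15 (numpy 2.4.6, pandas 2.3.3, matplotlib 3.10.9) and R 4.3.3, and were tested on simulated data.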

Additional observations from a re-analysis of the deposited data

Results flagged for a closer look

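In 3 members the difference made by LA at the brightest probe had opposite signs with and without LPS, each beyond the median SD between probes of a gene. The first minus the second (LPS with LA against LPS, minus LA against medium) was 2.29 for Scd2, -1.40 for Stard4 and 1.22 for Fads1. These are single arrays, and the difference was not tested. Scd2 lay at 1.53 for LPS with LA against LPS and at -0.76 for LA against medium. Fads1 lay at 0.79 and -0.43, and its second probe at 0.85 and -0.04. Stard4 lay at -0.90 and 0.50, and its second probe was not well above background on the LPS array.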

How the results depend on the processing

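Of 1272 recomputed member differences 0 changed sign in a called value and 140 moved by more than the spread between probes. Calls that stayed past 2-fold in every setting with a value were 3 of 3 for LPS against medium (Idi1, Scd2, Fads1), 2 of 5 for LA against medium (Lpl, Cd36), 7 of 13 for LPS with LA against LPS (Hmgcs1, Idi1, Fasn, Scd2, Abcg1, Lpl, Ch25h) and 0 of 1 for LPS with LA against LA. For measured members with 1 probe, such as Idi1, Hmgcs1, Fasn, Scd2 and Abcg1, the mean of all probes and no filter could not change the value. Of 140 counts and medians, 23 moved.

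Members higher in LPS against medium were 3 with median scaling and 2 with no filter on dim probes, and members lower were 4 with the 75th percentile over detected probes and 4 in the authors' table. In LA against medium, members higher were 1 with median scaling, 4 with no filter and 0 with normexp, and the fatty acid median was 0.0465 with the mean of all probes. In LPS with LA against LPS, members higher were 11 in the authors' table and 3 with normexp. Members lower were 4 with the 75th percentile over detected probes, 3 in the authors' table and 5 with quantile normalization. In LPS with LA against LA, members lower were 0 with the mean of all probes, 2 with no filter and 0 with normexp. Medians in the authors' table were -0.67 (LXR and PPAR), -0.74 (fatty acid) and -0.20 (sterol) for LPS against medium, and 0.10, 1.12 and -0.18 for LPS with LA against LPS, where the sterol median was -0.23 with quantile normalization. The authors' scaling moved the median of all genes to -0.24 and 0.43 in these 2 comparisons. Relative to it, the medians lay within 0.01 of the reported ones when those were also taken relative to their median of all genes. The cause of the other changes was not tested. No paired analysis was possible because each group has 1 array. No replicate could be left out for the same reason.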
